A study of Mus musculus with 20 samples.

Results

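E proteins are basic helix-loop-helix transcription factors that pair with themselves or with tissue-specific partners and bind E-box sequences, and in the thymus they are known for driving the rearrangement of antigen receptor genes and T lineage commitment. ID proteins carry the same helix-loop-helix fold without the basic region, so that a pair of an E protein and an ID protein does not bind DNA. In developing T cells signals from the pre-T-cell receptor and the T-cell receptor are known to raise *Id3*, and loss of E protein activity is a known route to T-cell leukemia. The 6 genes described here are the E protein genes *Tcf3* (E2A, ENSMUSG00000020167), *Tcf4* (E2-2, ENSMUSG00000053477) and *Tcf12* (HEB, ENSMUSG00000032228) and the ID genes *Id1* (ENSMUSG00000042745), *Id2* (ENSMUSG00000020644) and *Id3* (ENSMUSG00000007872). They were chosen by symbol from the 39017 genes of a table of RNA levels. *Tcf3* and *Tcf4* here are not the similarly named WNT factors, whose symbols are *Tcf7l1* and *Tcf7l2*.

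The RNA came from the bone marrow of mice carrying transplanted T lineage acute lymphoblastic leukemias (T-ALLs) induced by insertional mutagenesis. C57Bl/6 x 129Sv/Jae F1 pups had been injected with the retrovirus MOL4070LTR. The leukemias were passaged in wild-type recipients. The methods name no sorting of the marrow before RNA extraction, so cells of the recipient may have been present. The labels give no genotype, age or treatment for a library. Each of 9 leukemias (JW81, JW14, 8633, 5C, 78A, 73M, 73A, 2M and 20M) had 2 libraries, 1 from a column with VEH in its name and 1 from a column with DEX. Neither the labels nor the paper's text explains these letters. A further leukemia, 4638, is given apart. The labels do not say that the libraries of a leukemia came from separate recipients beyond their different numbers, so p-values measure only the spread between these libraries.

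The 18 libraries of the 9 leukemias held 8226528 to 201222288 counts. Ribosomal RNA genes were above 1 count per M counts in 5 of them, of which 4 were DEX libraries (JW81, JW14, 73M and 20M) and 1 was a VEH library (5C). Of the T lineage markers, 8 of 8 were detected in every library, and their summed level was 340 to 1044 FPKM (fragments per kilobase of exon and M counts). Summed myeloid markers reached 566 FPKM in the VEH library of 73A and summed erythroid markers 753 FPKM in that of 73M, whereas B lineage markers stayed at or under 29.8 FPKM. In bulk marrow, fewer cells of a type and less RNA per cell cannot be told apart.

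The 3 ID genes are short and alike in the region that encodes the helix-loop-helix. The most similar in-frame stretch of 120 coding bases in all 3 is shown so that the likeness, and the room to tell the genes apart by their reads, can be seen. It lies at chr2:152736518-152736637 on the plus strand in *Id1*, at chr12:25095783-25095902 on the minus strand in *Id2* and at chr4:136144002-136144121 on the plus strand in *Id3* (GRCm38, GENCODE release M21, coding exons). Capitals mark bases that are the same in all 3 genes.
Id1: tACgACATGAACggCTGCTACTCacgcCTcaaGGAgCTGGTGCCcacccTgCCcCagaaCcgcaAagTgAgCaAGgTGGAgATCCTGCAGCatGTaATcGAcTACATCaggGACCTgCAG
Id2: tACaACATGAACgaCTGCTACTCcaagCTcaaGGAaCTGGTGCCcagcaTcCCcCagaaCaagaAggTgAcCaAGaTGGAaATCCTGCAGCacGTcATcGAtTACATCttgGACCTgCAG
Id3: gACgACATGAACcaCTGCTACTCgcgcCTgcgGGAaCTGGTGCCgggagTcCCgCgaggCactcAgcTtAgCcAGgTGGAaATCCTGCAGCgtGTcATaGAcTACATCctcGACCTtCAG
In this stretch 77 of 120 bases (64.2%) were shared by all 3 genes. *Id1* and *Id2* had 81.7% of bases in common, *Id2* and *Id3* 71.7%, and *Id1* and *Id3* 70.8%. Over whole annotated transcripts the longest run of identical bases between any 2 ID genes was 19 bases, between *Id2* and *Id3*. Among all 15 pairs of the 6 genes the longest such run was 47 bases, between *Tcf4* and *Tcf12*, which is shorter than the reads of the study. *Tcf12* contains 3 processed pseudogenes on the opposite strand. One of them, *Rpl15-ps2*, reached 105 FPKM in a library. The strand setting of the counting is not given in the sources used here, so that reads of *Tcf12* and of these pseudogenes could not be told apart where they overlap.

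Among the E protein genes, *Tcf3* was expressed at nearly the same level in each leukemia, *Tcf12* was in a high range in 6 leukemias and a low range in 3, and *Tcf4* was low. The mean level over 9 leukemias was 44.3 ± 22.1 FPKM for *Tcf12* (SD, n = 9), 29.4 ± 5.16 for *Tcf3* and 1.02 ± 1.09 for *Tcf4*. All 6 genes passed the filter of a mean of 1 FPKM, *Tcf4* only just. The order *Tcf12*, *Tcf3*, *Tcf4* was the same when the median length of coding transcripts stood in for the merged exons, but the means were then 305, 41.9 and 15.2 FPKM, because the merged exons of *Tcf4* (27382 bases) and *Tcf12* (15529 bases) are long beside their median coding transcripts (1841.5 and 2257 bases).

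*Tcf3*, whose products E12 and E47 are the E proteins best known from lymphocytes, had its lowest level in 73A (22.5 FPKM) and its highest in JW14 (36.3 FPKM). In the VEH libraries it was at 22.8 FPKM at the lowest, 30.2 at the median and 36.8 at the highest, and in the DEX libraries at 19.6, 25.4 and 41.03 FPKM. The ranges spanned by the libraries of neighbouring leukemias overlapped throughout the order. On the log2(FPKM + 1) scale the range of *Tcf3* between leukemias was 0.67, at percentile 27.6 of the 11339 genes tested, whose median range was 0.94. Its differences between leukemias passed the test (edgeR quasi-likelihood, adjusted p = 0.0268), but no longer without 73A (adjusted p = 0.0736).

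*Tcf12*, the E protein that pairs with E2A in thymocytes, was at 46.2 FPKM or more in 6 leukemias and at 18.2 FPKM or less in the other 3. The 6 were 20M (65.2 FPKM), 73A (64.9), 2M (62.3), 73M (59.4), 78A (52.9) and JW81 (46.2). The 3 were 8633 (18.2 FPKM), 5C (14.9) and JW14 (14.8). Libraries of 20M, 73A, 2M and 73M overlapped, as did those of 5C and JW14. No library of the 3 low leukemias overlapped one of the 6 others, but these groups were drawn from the same values. The share of all genes that separate the 3 from the 6 is not given here. The differences between leukemias had an adjusted p of 1.47e-08 (edgeR). The 3 leukemias lowest in *Tcf12* were also the 3 lowest in *Dtx1*, a target of NOTCH1 signalling, at 0.157 to 0.166 FPKM against 42.9 FPKM or more in the other 6. In 4638, *Tcf12* was at 25.4 FPKM in the VEH and 19.8 in the DEX library, with *Dtx1* at 0.18 and 0.386 FPKM.

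*Tcf4*, the E protein that plasmacytoid dendritic cells depend on, was highest in 73A (3.48 FPKM) and lowest in JW81 (0.0181 FPKM), where it rested on 13 counts in the VEH and 10 in the DEX library. Between them came 5C (0.0659 FPKM), 8633 (0.35), JW14 (0.406), 2M (0.717), 78A (1.1), 20M (1.44) and 73M (1.63). No neighbours in this order overlapped. *Tcf4* would not have reached the filter without 73A, where it was highest, so the test between leukemias is given with no filter on low values (edgeR adjusted p = 5.87e-21). Of the plasmacytoid dendritic markers, *Siglech* was at most 0.47 FPKM and *Klk1* at most 0.12 FPKM, both in 73A, while *Pacsin1* was at most 1.2 FPKM, in 2M, and *Cox6a2* at most 5.1 FPKM, in JW81, where *Tcf4* was lowest. *Ly6d* and *Ccr9*, which thymocytes express too, made up most of that list, with *Ly6d* up to 713 FPKM in 78A.

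Among the ID genes, the one with the highest level was not the same in each leukemia. Their ranges on the log2(FPKM + 1) scale were 3.68 for *Id1*, 3.63 for *Id2* and 3.66 for *Id3*, at percentiles 96.8, 96.6 and 96.7 of all genes tested, beside 2.14 for *Tcf4* and 2.07 for *Tcf12*. This scale flattens low genes such as *Tcf4* and *Id1*, so these ranges do not rank the genes, and no ratio of the highest to the lowest leukemia is given because the lowest rested on few counts (2 and 0 in JW14 for *Id1*, 13 and 10 in JW81 for *Tcf4*). The mean over 9 leukemias was 9.97 ± 7.59 FPKM for *Id2*, 9.4 ± 7.17 for *Id3* and 2.86 ± 3.88 for *Id1* (SD, n = 9). All 6 genes differed between leukemias at an adjusted p under 0.05, *Tcf4* after passing the filter through 73A, but so did 82.5% of the genes tested.

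*Id1*, known as a target of BMP signalling, was highest in 78A, with 13.4 FPKM in the VEH and 11.01 in the DEX library. It was at 1.94 to 4.82 FPKM in 2M, 20M, 73A and 73M and at 0.387 FPKM or less in 5C, JW81, 8633 and JW14. In JW14 it had 2 counts in the VEH library and 0 in the DEX library, where 3 counts would correspond to 0.314 FPKM. Among neighbours only 73A and 73M overlapped in FPKM (adjusted p between leukemias 3.18e-08, edgeR). The libraries of 5C, JW81, 8633 and JW14 rested on 0 to 13 counts, so the order of these leukemias cannot be told.

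*Id2*, the ID gene that natural killer and innate lymphoid cells depend on, was highest in 73A (27.9 FPKM VEH, 19 FPKM DEX). It was at 12.4 to 14.7 FPKM in JW81, 73M, 78A and 20M, whose libraries overlapped. It was at 5.78 FPKM in 2M and 3.34 FPKM in 5C, and at 1.2 and 0.983 FPKM in 8633 and JW14, which overlapped. The 3 lowest leukemias, 5C, 8633 and JW14, were those lowest in *Tcf12* (adjusted p between leukemias 2.55e-06, edgeR).

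*Id3* ran the other way at the ends of its order, with its highest level in JW14 (23.8 FPKM) and its lowest in 73A (0.999 FPKM). In the VEH libraries the order was JW14 (23.4 FPKM), 8633 (20.3), 2M (19.7), 20M (13.5), 5C (11.01), 78A (10.4), JW81 (8.88), 73M (3.75) and 73A (1.42). The means of neighbours could be told apart only between JW14 and 8633, since the 2 libraries of a leukemia lay far apart for this gene. The test between leukemias, which takes out the mean difference of DEX and VEH columns, gave an adjusted p of 0.000161 (edgeR).

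**Figure D1:**
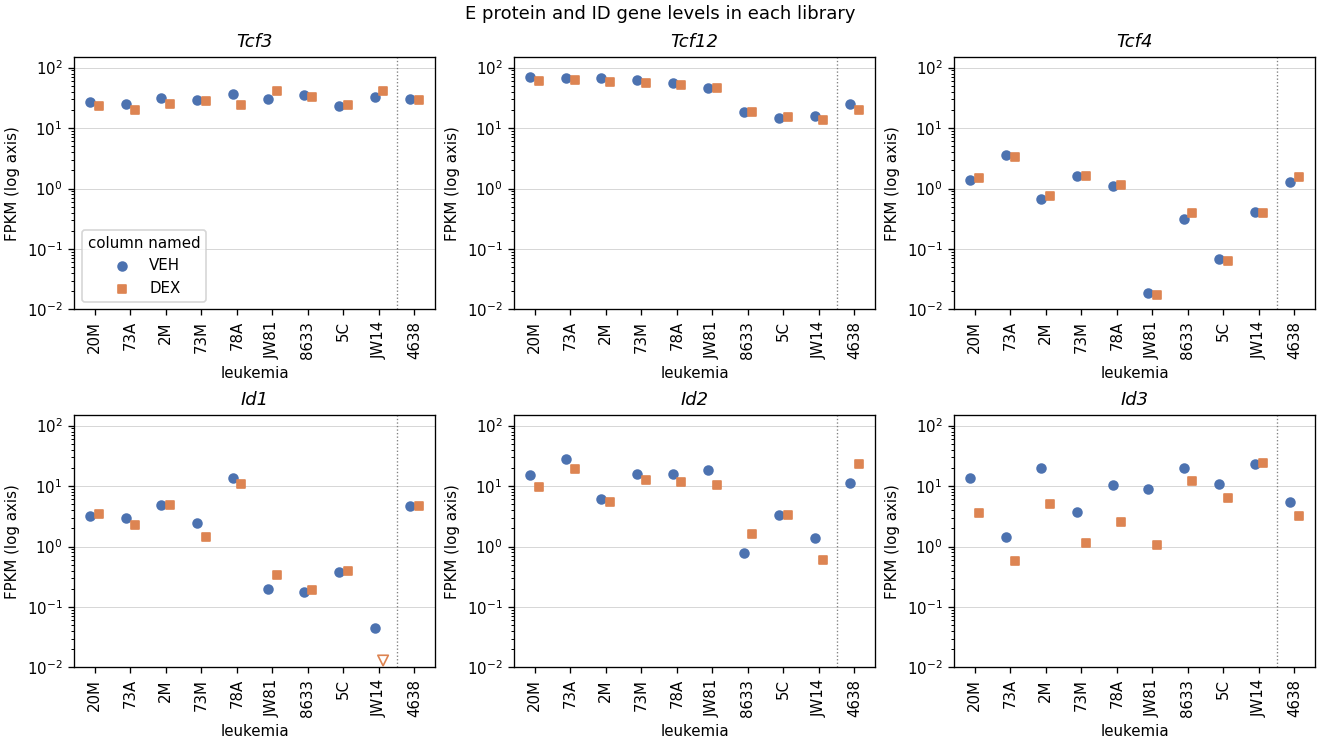
FPKM of each gene (log axis) in the VEH (circles) and DEX (squares) library of each leukemia, in the order of *Tcf12* levels, with 4638 set apart by a dotted line; the open triangle at the foot marks a library with 0 counts. *Tcf3* stays between 19.6 and 41.03 FPKM in the 9 leukemias, *Tcf12* is at 18.2 FPKM or less in 8633, 5C and JW14, and the squares of *Id3* lie below its circles in 8 of 9 leukemias.

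*Id3* was the 1 gene of the 6 that changed between the DEX and the VEH columns. It fell in DEX by 1.40 on the log2 scale (SE 0.25, n = 9 leukemias, edgeR adjusted p = 0.00733), which is 2.64-fold lower. In the DEX libraries the order was JW14 (24.1 FPKM), 8633 (12.3), 5C (6.38), 2M (5.09), 20M (3.6), 78A (2.57), 73M (1.14), JW81 (1.05) and 73A (0.576). The DEX value was below the VEH value of the same leukemia in 8 of 9 leukemias, although the ranges of the DEX and the VEH libraries overlapped. JW14 was the exception in FPKM, with 24.1 against 23.4, and on the scale of normalised log2 counts per M its difference was -0.0051. The largest difference was that of JW81, -2.92, followed by 78A (-1.98), 2M (-1.93), 20M (-1.85), 73M (-1.59), 73A (-1.19), 5C (-0.73) and 8633 (-0.66). The leukemias with the smallest differences, JW14, 8633 and 5C, were again those lowest in *Tcf12*. Among all 11339 genes, 13% were called in either direction, 6.79% as lower and 6.22% as higher in DEX, so 1 of 6 is near the background. By size, *Id3* had the 8th largest fall, and 5 of the 770 genes called lower fell more.

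The difference of *Id3* was of like size without the libraries that held ribosomal RNA counts, but its call was lost in part of the data. In the 4 leukemias without such a library it was -1.48 (edgeR adjusted p = 0.0279, with 4.19% of genes called). In the 5 with 1 it was -1.35 (adjusted p = 0.131, with 0.132% called), and with a term for these libraries it was -1.31 (adjusted p = 0.0289, with 4.1% called). Leaving out each leukemia in turn gave -1.61 (without JW14) to -1.23 (without JW81), with adjusted p of 0.00391 to 0.0246. Without leukemia as a block in the model it was -0.96 (adjusted p = 0.942). Markers of other marrow cells also differed between the libraries. Summed myeloid markers were lower in DEX in 7 of 9 leukemias (median 132 FPKM VEH, 81.7 DEX) and T lineage markers in 8 of 9 (746 and 738 FPKM). B lineage markers were lower in 5 of 9 (1.24 and 1.31 FPKM), and erythroid markers in 3 of 9. The plasmacytoid dendritic and the endothelial and stromal lists were each lower in 8 of 9, the latter nearly all *Pecam1*, with *Cdh5* at most 0.177 FPKM. Of the 5 lists of other cells no marker was at 0 in all 18 libraries. The part of these cells in the difference of *Id3* was not tested.

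The other 5 genes did not pass the test. *Id2* had a log2 difference of -0.29 (SE 0.16, edgeR adjusted p = 0.219). It was lower in DEX in 7 of 9 leukemias, from -1.21 in JW14 to 0.06 in 5C and 1.12 in 8633. Without 8633 it was -0.42 and passed the test (adjusted p = 0.0297). In 8633 it was at 0.774 FPKM in the VEH and 1.64 in the DEX library. *Tcf4* had 0.11 (SE 0.062, adjusted p = 0.259), *Tcf12* -0.05 (SE 0.053, adjusted p = 0.558), *Id1* -0.10 (SE 0.16, adjusted p = 0.680) and *Tcf3* -0.05 (SE 0.10, adjusted p = 0.790).

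Single leukemias differed by more than these means show. *Tcf3* was higher in DEX by 0.57 in JW81 and 0.28 in JW14 and lower by values up to -0.60 in 78A. The DEX minus VEH difference of *Tcf3* was larger by 0.46 (SE 0.16) in the leukemias with a library holding ribosomal RNA counts than in those without, at an unadjusted p of 0.0164 and an adjusted p of 0.604. By edgeR this term was called for 0 of 11339 genes, with 920 genes at an unadjusted p under 0.05. *Tcf12* kept within -0.26 (JW14) and 0.15 (JW81), and *Tcf4* within -0.09 (JW14) and 0.41 (8633).

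**Figure D2:**
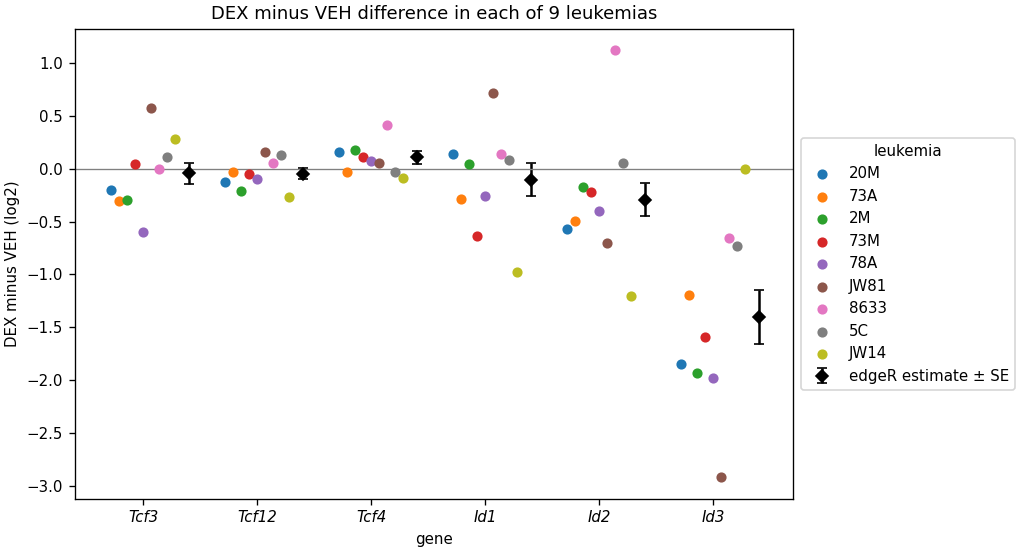
DEX minus VEH difference of each gene in normalised log2 counts per M, 1 point per leukemia, with the edgeR estimate and its standard error as a black diamond. The points of *Id3* run from -2.92 (JW81) to -0.0051 (JW14), while the standard errors of *Tcf3*, *Tcf12* and *Id1* span 0.

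Summed per library, the E protein genes exceeded the ID genes in each library, and the ratio was higher in the DEX library of each of the 9 leukemias. The E protein sum was 77.2 ± 24.4 FPKM in VEH and 72.2 ± 18.6 in DEX (SD, n = 9), lower in DEX in 6 of 9 leukemias. The ID sum was 27.2 ± 7.37 FPKM in VEH and 17.3 ± 5.44 in DEX, lower in DEX in 9 of 9. Their ratio was 2.85 ± 0.662 in VEH and 4.47 ± 1.56 in DEX. On the log2 scale, with 1 FPKM added to each sum, the difference of E protein and ID sums was larger in DEX by 0.57 ± 0.34, from 0.17 in JW14 to 1.36 in JW81. With the median length of coding transcripts the mean ratios were 8.41 and 12.8, and in JW14 the ratio was then lower in DEX (4.51) than in VEH (4.55). These are RNA ratios, and no test of DEX against VEH was made of them.

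Different ID genes supplied the sum in different leukemias. *Id3* made up 94.3% of the ID sum in the VEH and 97.6% in the DEX library of JW14, and 95.5% and 87.1% in 8633. *Id2* made up 86.5% and 86.8% in 73A. *Id1* reached its largest share in 78A, with 33.9% and 43.6%. In JW81 the share of *Id3* was 31.8% in VEH and 8.78% in DEX, and in 2M it was 64.4% and 33.1%. Of the E protein sum, *Tcf12* held 53.2% to 73.2% in the 6 leukemias with high *Tcf12*. In 5C, 8633 and JW14 *Tcf3* held 60.6% to 74.2%, but 24.04% to 36.5% by the length of coding transcripts, by which *Tcf12* led in these as well. *Tcf4* held at most 3.92% (73A), or 9.81% by that length.

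**Figure D3:**
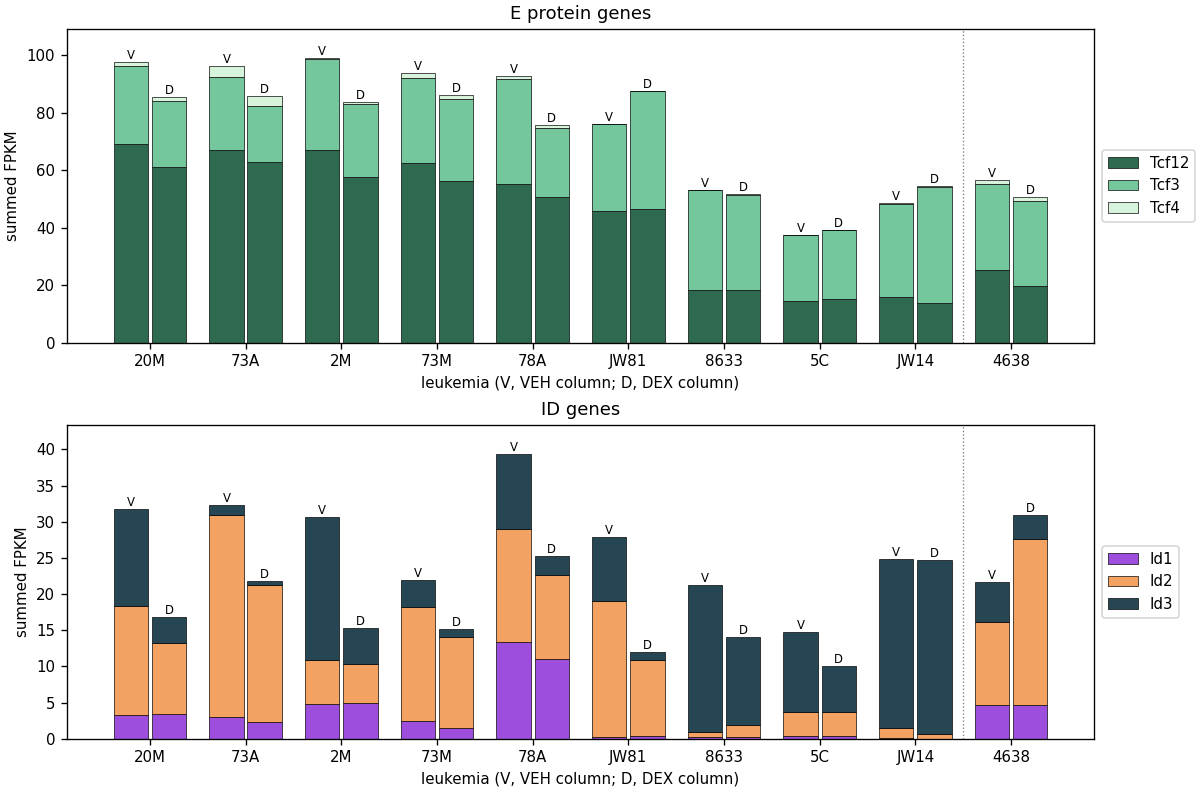
Summed FPKM of the E protein genes (top) and ID genes (bottom) in the VEH (V) and DEX (D) library of each leukemia, stacked by gene. The ID bar is shorter in DEX than in VEH in the 9 leukemias left of the dotted line, by 0.141 FPKM in JW14, and taller in 4638 (21.6 and 30.9 FPKM).

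In 4638 the ID sum went the other way. The ratio of E protein to ID sums did so too, at 2.62 in the VEH and 1.64 in the DEX library. *Id2* was at 11.4 FPKM in the VEH and 22.9 in the DEX library, while *Id3* was at 5.51 and 3.26 FPKM and *Id1* at 4.64 and 4.69 FPKM. *Tcf3* was at 29.8 and 29.5 FPKM and *Tcf4* at 1.28 and 1.58 FPKM. These libraries stood apart in their summed markers. T lineage markers were at 220.3 and 185 FPKM, below the 9 leukemias, and myeloid markers at 1373 and 940.1 FPKM, above them. With 4638 as a 10th leukemia, *Id3* fell by 1.34 (edgeR adjusted p = 0.0058).

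Genes known to be regulated by E proteins in lymphoid cells were at very different levels in the 9 leukemias, and 1 of 10 tested fell in DEX, against 6.79% of all genes. All 10 that passed the filter, of 11 listed, differed between leukemias, near the 82.5% of all genes that did. The widest ranges were those of *Dntt*, which encodes terminal transferase, *Rag1*, of the recombinase that cuts antigen receptor genes, and *Notch1*, a receptor that T lineage commitment depends on. *Rag1* was at 0.00332 to 0.185 FPKM in the 3 leukemias with low *Tcf12* and at 27.1 FPKM (JW81) to 172 FPKM (20M) in the other 6. *Dntt* was at 0.228 FPKM in 5C, 1.47 in 8633 and 16.7 in JW14 and at 89.9 to 294 FPKM in the other 6. *Notch1* was at 1.1 FPKM in JW14, 1.14 in 5C and 1.51 in 8633 and at 57.7 FPKM (JW81) or more in the other 6. *Gfi1*, a transcriptional repressor, was in contrast highest in 8633 (92.9 FPKM) and lowest in 73A (15.3 FPKM). *Cdk6* was likewise higher in the 3 with low *Tcf12*, at 16 FPKM (JW14) to 24.8 FPKM (8633). In the other 6 it was at 2.65 FPKM (78A) to 12.3 FPKM (JW81). *Ptcra*, the pre-T-cell receptor alpha chain, had 0 counts in both libraries of 8633 and JW14. *Dntt* was lower in DEX by FPKM in 9 of 9 leukemias and fell by 0.86 on the log2 scale (SE 0.22, edgeR adjusted p = 0.0259). Its call was lost without 20M (adjusted p = 0.0527), without 2M (0.0614) and without 73M (0.064). The call was also lost with 4638 added (adjusted p = 0.0616) and with a term for the libraries with ribosomal RNA counts (0.163). In these fits its difference was -0.91 (without 20M) to -0.74 (with 4638 added). Of the genes that did not pass the test, *Rag1* had -0.58 (SE 0.22, adjusted p = 0.0917) and *Il7r*, the interleukin 7 receptor, 0.42 (SE 0.20, adjusted p = 0.160, higher in DEX in 7 of 9 leukemias). Without 2M, *Il7r* was the 1 gene of this list called, as higher. The median over the 10 genes was -0.17, against 0.0039 over all genes.

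Of the partners and cofactors of helix-loop-helix factors, 9 of 15 passed the filter. Of these, 2 fell in DEX, against 6.79% of all genes, and 8 differed between leukemias, near the 82.5% of all genes. The 8 include *Lmo2*, whose mean was 1.02 FPKM. It would not have reached the filter without 73A, where it was highest (2.54 FPKM). *Lyl1*, a class II partner of E proteins and a T-ALL oncogene, fell by 0.72 (SE 0.13, edgeR adjusted p = 0.00714) and was lower in DEX in 9 of 9 leukemias. Its lowest, median and highest levels were 0.996, 8.29 and 15 FPKM in the VEH and 0.321, 4.84 and 9.59 FPKM in the DEX libraries, and in 4638 it was at 13.8 and 15.1 FPKM. Without 73M, whose erythroid markers were at 753 FPKM in VEH and 101 in DEX, it fell by 0.61 (adjusted p = 0.00948). Between leukemias it ranged from 0.659 FPKM in JW81 to 12.3 FPKM in JW14. *Cbfa2t3*, a corepressor of the ETO family that binds E proteins, fell by 1.21 (SE 0.26, adjusted p = 0.0144) and was lower in 8 of 9. With a term for the libraries with ribosomal RNA counts the call of *Lyl1* held (-0.60, adjusted p = 0.0282) and that of *Cbfa2t3* did not (-1.06, adjusted p = 0.0768). The other wide ranges were those of the LIM domain oncogene *Lmo1*, from 0 counts in JW14 to 11.5 FPKM in 73M, and of the acetyltransferase *Crebbp*, from 4.69 FPKM in JW14 to 18.6 in 20M. *Id4*, the remaining ID gene, had a mean of at most 0.0168 FPKM in the 9 leukemias and 0.0365 FPKM in 4638. *Tal1* had a mean of at most 1.68 FPKM in the 9 (73M, with 3.07 FPKM in VEH and 0.283 in DEX) and of 2.96 FPKM in 4638. The median over the 9 genes was -0.11.

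Of the regulators of *Id* transcription and of E and ID protein turnover, 11 of 15 passed the filter. Of these, 2 fell in DEX, against 6.79% of all genes, and 10 differed between leukemias, near the 82.5% of all genes. *Smad5*, a transducer of BMP signals, fell by 0.26 (SE 0.05, edgeR adjusted p = 0.00974) and was lower in 9 of 9 leukemias. In the 4 leukemias without a library with ribosomal RNA counts it was -0.20 (adjusted p = 0.153). *Skp2*, of a ubiquitin ligase, fell by 0.36 (SE 0.10, adjusted p = 0.0437), and that call was lost without any 1 of 20M, 5C, 73A, 73M, 8633, JW14 and JW81 (adjusted p up to 0.0937, without 73M), with 4638 added (0.0566) and with the ribosomal RNA term (0.154). In the 4 leukemias without a library with ribosomal RNA counts *Skp2* was -0.14 (adjusted p = 0.466). *Egr1*, which acts on *Id3* below the T-cell receptor, did not pass the test, at -0.84 (SE 0.27, adjusted p = 0.0599). *Smad1* ranged from 0.0964 FPKM in 2M to 6.66 in 8633, and *Smad3* from 10.2 FPKM in 5C to 46.1 in JW81. The median over the 11 genes was -0.04.

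**Figure D4:**
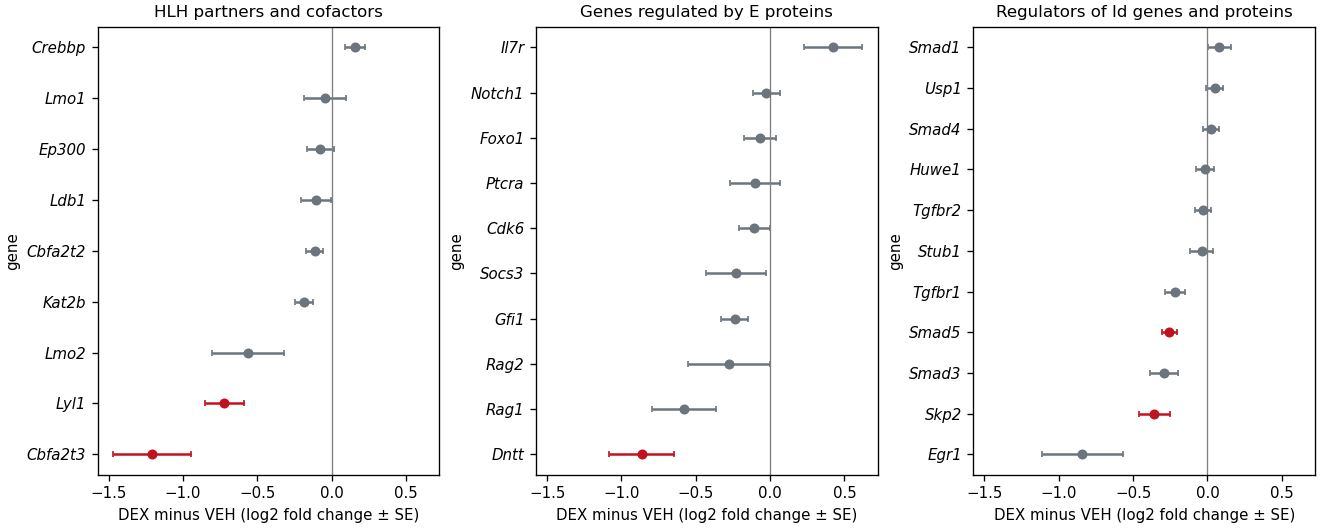
DEX minus VEH log2 fold change (points, with standard errors) of the tested genes of each list, with genes called at an adjusted p under 0.05 in red and the rest in grey. The 5 called genes, *Lyl1*, *Cbfa2t3*, *Dntt*, *Smad5* and *Skp2*, all lie left of 0.

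**Figure D5:**
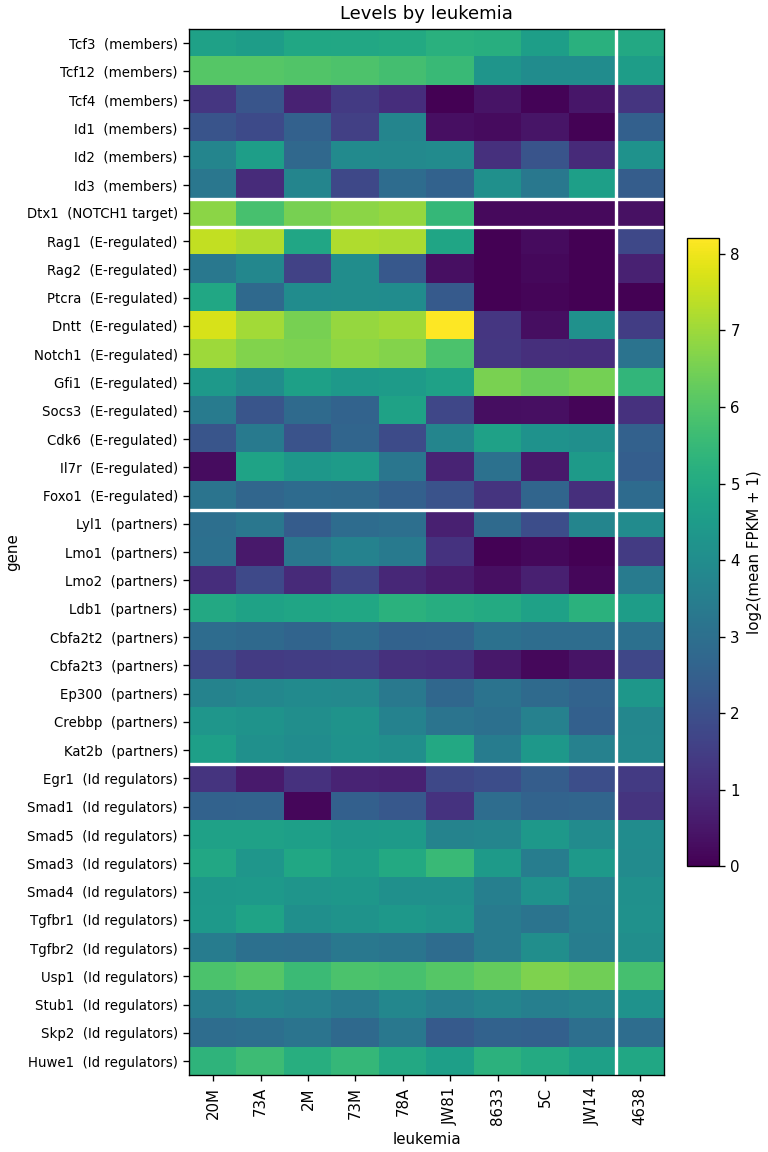
Mean level of each gene in each leukemia as log2(mean FPKM + 1), with leukemias in the order of *Tcf12* and 4638 at the right. *Dtx1*, *Rag1* and *Notch1* are dark in 8633, 5C and JW14, as *Tcf12* and *Id2* are darker there, while *Id3* is bright in 8633 and JW14.

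The genes whose leukemia means of log2(FPKM + 1) were most like those of each gene were taken from 5222 genes with a range of at least 1. The points share their libraries, and with 9 leukemias many genes reach a high r, so these are descriptions. For *Tcf12* they were *Notch1* (Pearson's r = 0.993, n = 9), *Pag1* (0.991) and *Gfra1* (0.99). For *Id1* they were *Tnfaip2* (0.99), *Gm26782* (0.985) and *Nrarp* (0.957), and for *Id2* *Tbc1d8* (0.989), *Myef2* (0.983) and *Twsg1* (0.97). For *Id3* they were *Ptpn7* (0.974), *Fam216a* (0.928) and *Nt5c3b* (0.921), for *Tcf4* *Svil* (0.975), *Vps13a* (0.961) and *Lrrk2* (0.952), and for *Tcf3* *Gaa* (0.926), *Smyd2* (0.908) and *Pnck* (0.898).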

How the data were processed

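The authors aligned paired-end reads of poly(A)-selected TruSeq libraries with Bowtie2 (version 2) to mm10 and quantified them with RSEM. The annotation and the strand setting are not given in the sources used here. The deposited table holds RSEM expected counts, which divide reads between genes by likelihood and need not be whole. Of 20 columns, 17 match a sample title exactly and 3 (DEX of 73A, 2M and 4638) match by leukemia only; 0 were left unmapped.

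Expected counts were rounded and tested with edgeR 4.0.16 in R 4.3.3 (quasi-likelihood, TMM, terms for leukemia and for DEX or VEH, Benjamini-Hochberg threshold 0.05) over 11339 genes whose mean in 18 libraries reached 1 FPKM. Both libraries of a leukemia come from the same leukemia, which is why it is a block. FPKM used the library total and the merged exon length of GENCODE release M21, found for 37693 genes (96.6%). DESeq2 1.42.0, other scalings, filters and lengths and each leukemia left out were alternatives. The levels of other genes and normalised counts were handled in Python 3.11.15 with pandas 2.3.3. In the deepest library 3 counts on 1 kb of exon are 0.0149 FPKM and in the shallowest 0.365 FPKM, which covers counting error only.

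Besides the 6 genes, the text names *Dtx1*, the 3 most similar genes of each, and from each list the called genes and the 3 with the widest ranges. *Rag1*, *Il7r* and *Egr1* differences, *Ptcra*, *Gfi1*, *Cdk6*, *Id4*, *Tal1* and *Lmo2* were added after their values were seen. One listed gene regulated by E proteins is not reported here, and its list was counted without it. The genes and lists were chosen with earlier results of these data known. On simulated counts for 11339 genes with 200 changed 4-fold, edgeR recovered 99% for DEX against VEH with 6.6% false calls. DESeq2 recovered 99% with 10.8% false calls, and the test between leukemias 89.5% with 15.6%. Each of these false shares was above the threshold set for calls, that of the test between leukemias by the most. *Id3* was 2.64-fold lower in DEX, and the called genes of the lists changed by less. Recovery of changes smaller than 4-fold was not tested, so these shares do not apply to those genes.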

Additional observations from a re-analysis of the deposited data

Results flagged for a closer look

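The DEX minus VEH difference in the log2 ratio of summed E protein to summed ID levels was 1.36 in JW81, farther from the other 8 leukemias than Dixon's 95% critical value for 9 samples allows (ratio 0.547, critical value 0.493). Of 14 sets of 9 values examined this was the 1 that exceeded it, and chance flags about 1 in 20. Both sums moved in JW81, with *Id3* at 8.88 and 1.05 FPKM, *Id2* at 18.8 and 10.6 FPKM and *Tcf3* at 30.2 and 41.03 FPKM in the VEH and DEX libraries. Its DEX library is 1 of the 5 with ribosomal RNA counts, and summed myeloid markers were at 132 FPKM in the VEH and 33.1 in the DEX library. Their part in the difference was not tested.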

How the results depend on the processing

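Of 272 values recomputed under an alternative, 250 kept their direction, their side of the threshold or their size. The 250 include *Tcf3* between DEX and VEH columns, which was not called but changed its sign. It was -0.05 in the main fit, 0.16 in the 5 leukemias with ribosomal RNA counts in a library and -0.30 in the 4 without. The count of genes called between DEX and VEH columns (1475) was 1485 with DESeq2 size factors, 1803 without a filter, 1474 with filterByExpr, 1430 with 4638 and 2169 with DESeq2. It was 465 with a term for the libraries with ribosomal RNA counts, 475 in the 4 leukemias without such a library and 15 in the 5 with 1, and 654 (without 20M) to 2041 (without 5C) when a leukemia was left out. Without the replicate block of leukemia it was 8, and *Id3* was -0.96 (adjusted p = 0.942), since the spread between leukemias then stays in the residual. In the 5 leukemias with ribosomal RNA counts in a library *Id3* was -1.35 (adjusted p = 0.131). Genes lower in DEX among partners, E-regulated genes and *Id* regulators (2, 1 and 2) were 3, 1 and 5 by DESeq2, 2, 2 and 5 without a filter, 3, 0 and 3 with 4638, 1, 0 and 1 with the ribosomal RNA term, 2, 1 and 0 in the 4 leukemias, 0 in each list in the 5, and 0 in each without the block. Leaving out a leukemia moved *Id2* between -0.42 and -0.23 and the adjusted p of *Tcf3* between leukemias from 0.0101 to 0.0736. The mean log2 balance of E protein and ID sums (1.73) was 1.24 as a mean of logs and 3.24 by the length of coding transcripts. By that length *Tcf3* was at 41.9, *Tcf4* at 15.2, *Tcf12* at 305 and *Id2* at 19.1 FPKM. *Tcf3* was at 36.3 FPKM over protein-coding genes and at 44.8 TPM, and *Tcf12* at 69.3 TPM. Levels of *Id1* in JW14, 8633, JW81 and 5C rest on 0 to 13 counts in a library.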
